A study of Mus musculus with 8 samples.

Results

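The kinesins are the motor proteins that walk along microtubules or take them apart, and the mouse genes of most of them have symbols that begin with Kif and a digit. On the Illumina bead arrays analysed here, 40 of 24613 probes carried such a symbol in the platform annotation, and they stood for 26 of the 16449 named genes. The genes were sorted by textbook role into 10 spindle kinesins (14 probes), 10 cargo kinesins (17 probes) and 6 others (9 probes). The expression values chose none of them, although earlier results of these data were known when the lists were drawn up.

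RNA of NS5 cells, a mouse neural stem cell line grown as an adherent culture with growth factors, was hybridised to 4 arrays. RNA of astrocytes made from NS5 cells was hybridised to another 4. For the astrocytes, growth factors were withdrawn and fetal calf serum was added at 5% for 3 days, which the labels describe as yielding GFAP-positive cells. Both groups therefore come from 1 cell line and carry no stated genetic change, the labels call the 4 samples of each biological replicates, and astrocytes here means a short serum treatment in culture, not cells taken from brain.

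In a dividing cell, spindle kinesins push the spindle poles apart, move chromosomes, trim microtubule ends and build the midzone where the cell is cut. Cargo kinesins work between divisions and carry vesicles, mitochondria and the parts of the primary cilium along microtubules. Genes of the spindle kinesins are known to be transcribed mainly in the G2 phase of the cell cycle and in mitosis, through promoter elements among which are the cell cycle homology region, which keeps them silent in resting cells, and CCAAT boxes, which bind the activator NF-Y.

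Because the spindle kinesins moved together in the data described below, their promoters are shown before the values. RefSeq windows (GRCm38.p6) ran from 250 bases before to 50 bases after a gene start. Windows of another length and those of 1 chromosome were left out, and windows of 23 of the 26 genes were used. The letters TTTGAA, searched on both strands and so also read as TTCAAA, match the cell cycle homology region. They were present in 8 of the 10 windows of spindle kinesins, in 1 of the 10 of cargo kinesins and in 1 of the 7 of the other kinesins. Of all 32851 windows kept, 17.9% held them. The letters CCAAT, likewise also read as ATTGG, were present in 6 of 10, 3 of 10 and 1 of 7 windows, against 37.4% of all windows. Both were present together in 5 of 10 spindle windows, in 0 of 10 cargo windows and in 6.95% of all windows. The 6 windows below include the 5 spindle windows that held both motifs. These are those of 4 spindle kinesins that fell in astrocytes and of Kif11, whose probe gave no usable signal. The last window is that of the cargo kinesin Kif3a, which rose. Capitals mark the letters of either motif, the sequences run 5′ to 3′ on the strand of the gene, and no overlap between the motifs occurred in them.
Kif23, chr9:61946750-61947049, minus strand: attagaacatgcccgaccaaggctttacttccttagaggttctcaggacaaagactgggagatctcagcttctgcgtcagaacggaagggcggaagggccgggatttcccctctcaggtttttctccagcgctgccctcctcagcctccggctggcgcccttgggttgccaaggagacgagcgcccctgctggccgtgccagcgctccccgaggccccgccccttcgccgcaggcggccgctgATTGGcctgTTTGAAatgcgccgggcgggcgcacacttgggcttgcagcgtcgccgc
Kif18b, chr11:102925075-102925374, minus strand: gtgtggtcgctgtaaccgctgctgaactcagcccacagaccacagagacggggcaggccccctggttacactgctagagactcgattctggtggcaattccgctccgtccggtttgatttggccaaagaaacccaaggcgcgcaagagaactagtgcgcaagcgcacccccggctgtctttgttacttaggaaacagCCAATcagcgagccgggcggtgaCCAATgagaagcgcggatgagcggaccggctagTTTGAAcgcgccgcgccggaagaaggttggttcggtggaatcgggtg
Kif22, chr7:127042371-127042670, minus strand: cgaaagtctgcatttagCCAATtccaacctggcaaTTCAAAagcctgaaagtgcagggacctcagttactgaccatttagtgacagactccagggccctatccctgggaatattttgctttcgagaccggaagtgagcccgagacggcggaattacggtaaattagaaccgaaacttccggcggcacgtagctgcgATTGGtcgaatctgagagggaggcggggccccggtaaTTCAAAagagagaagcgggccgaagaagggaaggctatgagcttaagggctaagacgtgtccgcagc
Kif4, chrX:100625815-100626114, plus strand: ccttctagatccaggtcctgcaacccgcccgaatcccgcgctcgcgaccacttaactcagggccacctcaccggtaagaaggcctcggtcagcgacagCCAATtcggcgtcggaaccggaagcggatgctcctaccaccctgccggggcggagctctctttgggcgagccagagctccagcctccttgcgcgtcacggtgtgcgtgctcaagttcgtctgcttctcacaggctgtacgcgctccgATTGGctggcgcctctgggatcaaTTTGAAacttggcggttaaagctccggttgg
Kif11, chr19:37376132-37376431, plus strand: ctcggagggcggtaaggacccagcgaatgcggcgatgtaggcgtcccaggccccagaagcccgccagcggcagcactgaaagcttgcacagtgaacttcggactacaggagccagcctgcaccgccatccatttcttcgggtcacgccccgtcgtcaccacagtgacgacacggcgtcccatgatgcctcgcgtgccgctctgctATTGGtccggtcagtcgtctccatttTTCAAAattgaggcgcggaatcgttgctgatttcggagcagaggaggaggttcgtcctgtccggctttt
Kif3a, chr11:53567119-53567418, plus strand: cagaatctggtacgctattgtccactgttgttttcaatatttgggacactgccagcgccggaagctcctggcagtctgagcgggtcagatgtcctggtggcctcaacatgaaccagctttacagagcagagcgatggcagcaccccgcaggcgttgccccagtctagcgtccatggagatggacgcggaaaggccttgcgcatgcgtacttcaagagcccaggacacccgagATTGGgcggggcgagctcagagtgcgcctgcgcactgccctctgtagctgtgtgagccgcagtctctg

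In all 5 of the spindle kinesin windows shown, the TTTGAA letters nearest to the gene start lay at most 20 bases from it. They began 17 bases before the start in Kif22 and 19 bases before it in Kif11, at base 3 of the transcript in Kif23, at base 4 in Kif18b and at base 20 in Kif4. Kif15, not shown, had them 19 bases before the start, and Kif20b had them at bases 8 and 14, in direct repeat. Kif2c had them 103 bases before the start. Kif15, Kif20b and Kif2c, which also fell in astrocytes, had no CCAAT letters in either reading. Kif18a and Kif2b did not have the TTTGAA letters in either reading in this window. Kif2b had CCAAT 44 bases before the start, and Kif18a had neither motif. The match is one of letters and does not show that a factor binds there.

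Across the 40 probes the pattern was a loss of spindle kinesin signal in astrocytes and small shifts in both directions among the cargo kinesins. With each gene represented by its brightest probe and no filter on dim probes, 13 of the 26 kinesin genes were called, at an adjusted p under 0.05 in limma with Benjamini-Hochberg adjustment over all genes, against 33.0% of the 19391 genes and unnamed probes on the array. Of the 10 spindle kinesins, 7 fell and 0 rose, and their median change was -2.72 on the log2 scale, whereas 16.5% of all genes fell and the median of all was -0.01. Of the 10 cargo kinesins, 3 fell and 2 rose, with a median of 0.05, against 16.5% of all genes in each direction. Of the 6 others, Kif21a rose and 5 were not called. In bulk RNA, fewer cells that express a gene and less RNA of it per cell cannot be told apart.

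By single probe, again with no filter, 21 of the 40 were called, against 30.9% of all probes. Of these, 14 were lower and 7 higher in astrocytes, against 15.8% and 15.1% of all probes. All 9 called spindle probes were lower. Of the 10 called cargo probes, 4 were lower and 6 higher. All of the higher ones were probes of Kif1b or Kif3a, and the lower ones were of Kif3c, Kif13a or Kif1a. By gene, 3 fell and 2 rose. The called probes also include a probe of Kif21b that was not above background on any array. The 4 signals of a group lay wholly above or below those of the other for 20 of the 40 kinesin probes, compared with 31.1% of all probes.

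Fold changes below give the astrocyte mean less the NS5 mean of log2(signal + 99.01), where the added constant makes the lowest intensity positive and understates the change of dim genes. Bounds given as at least a certain fold keep this constant too and are understated by it. Ratios of mean signals leave it out, so a bound and a ratio cannot be ranked against each other. Signals are quantile-normalised values with that constant removed again, in scanner units, and are comparable between arrays for 1 probe but not between probes. A background limit between 35.4 and 39.8 units was estimated for each array from its negative intensities. Unless stated otherwise, adjusted p-values of named genes come from the limma fit over the 10377 genes whose mean signal exceeded the median of all probes. Of these genes, 59.2% were called. In 54.9% of them the groups did not overlap. A filter on the mean keeps a gene that is bright in 1 group and dark in the other, so that such genes were bound to differ. Of the 6 spindle kinesins in this fit, Kif2c, Kif23, Kif4 and Kif20b stayed below the background limit in all 4 astrocyte samples and are of that kind. In their paragraphs below, the adjusted p-values of these genes are from the fit without the filter. In all, 17 of the 26 genes passed. On the edge of the filter, at a mean of 7.02 on the log2 scale, lay Kif15 with 6.98 just outside and Kif21b and Kif27 with 7.08 each just inside.

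**Figure D1:**
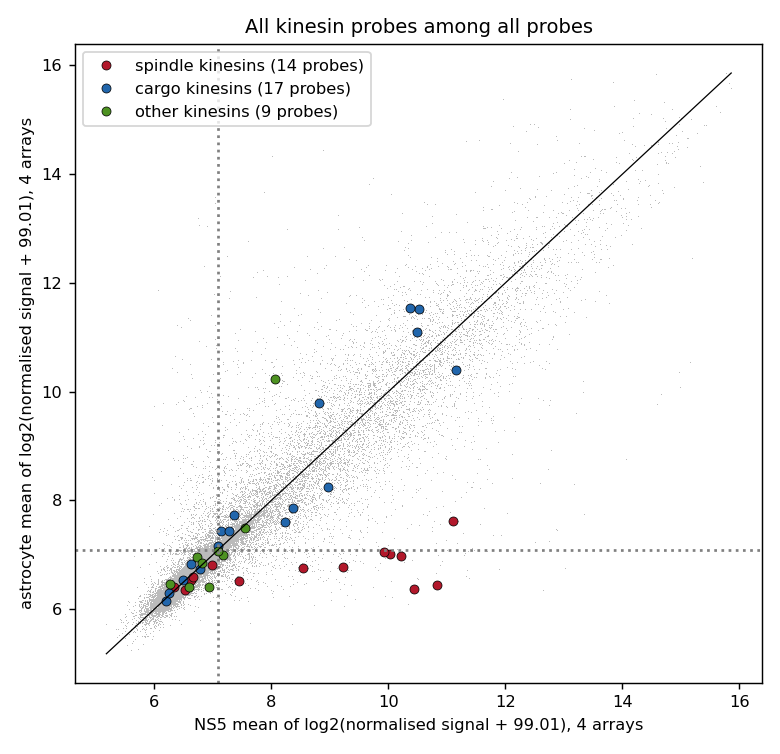
Mean log2(normalised signal + 99.01) of each probe over 4 NS5 arrays (horizontal axis) and 4 astrocyte arrays (vertical axis), with all probes in grey, the 40 kinesin probes as circles coloured by list, the line of equal signal, and dotted lines at the mean background limit. Bright spindle probes lie far below the line, at or below the mean astrocyte background limit except for that of Kif22, cargo probes lie close to the line on both sides, and a cluster of kinesin probes at the lower left was not above background in either group.

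Kif2c, the kinesin that takes microtubules apart at centromeres, had signals of 1590, 1750, 1940 and 1600 on NS5 arrays 1 to 4 and of 5.88, -13.7, -25.1 and -12.5 on astrocyte arrays 1 to 4. The groups did not overlap, and no astrocyte array was above background. Kif2c was therefore at least 13.4-fold lower in astrocytes (adjusted p = 2.51e-12, limma without the filter), with a fitted log2 fold change of -4.38 ± 0.11 (SE). Kif18b, which acts with Kif2c at the growing ends of astral microtubules, had NS5 signals of 800, 1050, 933 and 1000. Its astrocyte signals were 29.4, 38.7, 13.6 and 43.1, of which arrays 2 and 4 were above background. Its log2 fold change was -3.00 ± 0.10 (SE, adjusted p = 8.47e-11), and another probe of the gene gave -2.88, also with 2 of the 4 astrocyte arrays above background.

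Kif22, a kinesin that binds DNA and pushes chromosome arms towards the spindle equator, was the spindle kinesin that remained above background on all 4 astrocyte arrays. Its signals were 1970, 2340, 2110 and 2010 in NS5 cells and 172, 93.3, 82.9 and 61.0 in astrocytes. The mean NS5 signal was 20.6 times the mean astrocyte signal, and the log2 fold change was -3.48 ± 0.14 (SE, adjusted p = 3.86e-10). That ratio leaves out the added constant, unlike the bounds given for other spindle kinesins. With the constant kept, the fitted fold of Kif22 was 11.2. The highest astrocyte value, that of array 1, lay far below every NS5 value. Kif4, a chromosome-bound kinesin that also shortens the microtubules of the midzone, had NS5 signals of 1050, 1070, 1190 and 1040 and astrocyte signals of 25.5, 32.6, 29.4 and 21.3. It was at least 8.77-fold lower in astrocytes (adjusted p = 2.23e-12, limma without the filter). By its dimmer probe, for which NS5 signals ran from 233 to 305, it was at least 2.75-fold lower. The RefSeq gene table lists a pseudogene of Kif4 and another of Kif22, and whether these probes tell them apart was not tested.

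The kinesins of cytokinesis, the final cut between daughter cells, also fell. Kif23, the motor subunit of the centralspindlin complex, had NS5 signals of 1400, 1330, 1300 and 1130 and astrocyte signals of -16.2, -4.01, -25.4 and -19.0. All astrocyte values lay below 0 after background subtraction, and Kif23 was at least 10.3-fold lower there (adjusted p = 1.82e-12, limma without the filter). Kif20b, which is needed for the cut in dividing progenitors of the mouse brain, had NS5 signals of 552, 509, 453 and 475 and astrocyte signals of 8.44, 19.4, 8.03 and 7.66. It was at least 4.40-fold lower (adjusted p = 4.64e-11, limma without the filter). No probe analysed here was named as Kif20a or Kif14, and these genes are not analysed here.

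Kif15, a motor that helps to hold the spindle poles apart, missed the filter on the mean but was above background on all 4 NS5 arrays by its brightest probe. Its signals there were 93.8, 71.4, 68.8 and 70.3, against -1.09, -11.0, -15.5 and -1.98 in astrocytes. In the limma fit over all probes it was at least 1.29-fold lower (adjusted p = 1.10e-06), and its other probes were not above background on any array. The best-known spindle motor, Kif11, which slides antiparallel microtubules apart, could not be measured: its single probe had signals from -39.5 to 5.82 in NS5 cells and from -19.5 to -5.57 in astrocytes. The probes of Kif18a, which damps chromosome movements, and of Kif2b, which corrects attachments of chromosomes, were likewise not above background on any array. A dark probe gives no level for these 3 genes in either group.

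**Figure D2:**
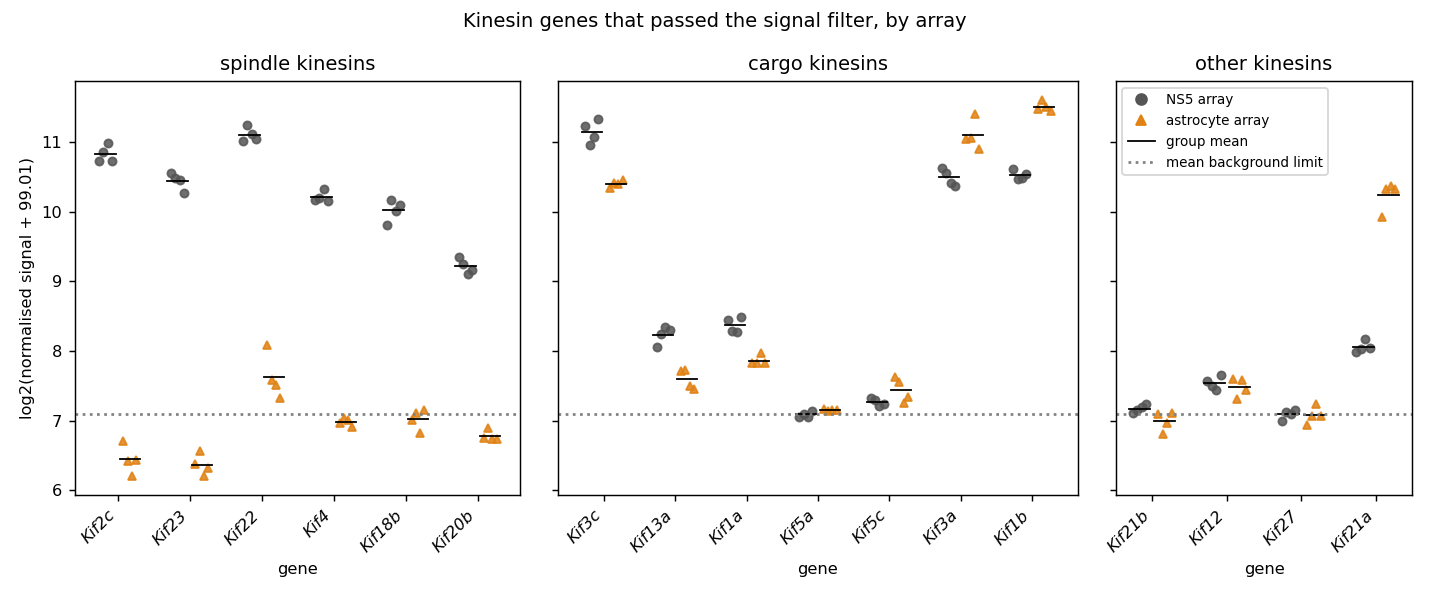
Each point is 1 array, with log2(normalised signal + 99.01) on the vertical axis and the 17 kinesin genes that passed the filter on the horizontal axis, in panels for spindle, cargo and other kinesins. NS5 arrays are grey circles, astrocyte arrays orange triangles, short lines group means and the dotted line the mean background limit. The groups are separate for each of the 6 spindle kinesins, with the astrocyte points of Kif22 above the limit and those of the other spindle kinesins near or below it, while Kif5a, Kif5c, Kif21b, Kif12 and Kif27 overlap.

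Among the cargo kinesins, Kif1b, which carries mitochondria and synaptic vesicle precursors in neurons, rose. Its signals were 1470, 1320, 1330 and 1390 on the NS5 arrays and 2760, 3020, 2820 and 2680 on the astrocyte arrays, which made it 0.98 ± 0.07 (SE) higher on the log2 scale (adjusted p = 1.10e-07). All astrocyte values lay above all NS5 values. A probe of nearly the same brightness gave 1.17, and the dim pair of probes gave 0.38 and 0.29 with overlapping groups, all in the fit over all probes. These 4 probes carry 1 and the same transcript accession, so that they could not be assigned to isoforms. Kif1a, the close relative that carries synaptic vesicle precursors in axons, went the other way. It had 249, 214, 211 and 261 in NS5 cells and 127, 129, 151 and 127 in astrocytes, and fell by 0.52 on the log2 scale (SE 0.08, adjusted p = 8.10e-05). Kif1c, a vesicle motor of many tissues, was above background on 1 of the 8 arrays, astrocyte array 3 with a signal of 37.2, and was not called in the fit over all probes (adjusted p = 0.166).

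Kif3a and Kif3c, motor subunits of heterotrimeric kinesin, also parted. Kif3a, which pairs with Kif3b or Kif3c, had signals of 1480, 1400, 1270 and 1230 in NS5 cells and 2020, 2040, 2610 and 1810 in astrocytes. It rose by 0.61 on the log2 scale (SE 0.11, adjusted p = 2.83e-04), and by 0.98 by its other probe, whose signals ran from 327 to 362 and from 685 to 947. Kif3c, a partner found chiefly in neurons, had 2310, 1890, 2060 and 2490 in NS5 cells and 1200, 1270, 1250 and 1300 in astrocytes. It fell by 0.75 on the log2 scale (SE 0.09, adjusted p = 9.31e-06), and its other probe gave -0.72. For neither subunit did the groups overlap, by either probe. Kif3b, the usual partner of Kif3a in cilia, is not analysed here.

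Kif13a, which carries vesicles from the trans-Golgi network to the cell surface, had signals of 166, 203, 227 and 215 in NS5 cells and 111, 113, 82.4 and 75.7 in astrocytes. It fell by 0.63 on the log2 scale (SE 0.09, adjusted p = 6.59e-05), without overlap. The heavy chains of conventional kinesin, the motor for mitochondria and many vesicles, gave little signal. Kif5c, the chain enriched in neurons, had 61.3, 58.3, 48.5 and 52.6 in NS5 cells and 99.1, 89.4, 53.5 and 62.6 in astrocytes. The groups overlapped and the gene was not called (log2 fold change 0.18 ± 0.09 (SE), adjusted p = 0.121), but it was called without astrocyte array 3, at 0.24 (adjusted p = 0.0377). In the 18 alternatives tried, its adjusted p lay between 0.0377 and 0.300. Kif5a, another neuronal chain, had signals from 34.2 to 42.2 in NS5 cells, with 1 of the 4 arrays above background, and from 41.2 to 44.5 in astrocytes (adjusted p = 0.450). Neither of the probes of Kif5b, the chain used by most cell types, was above background on any array, nor was either of those of Kif17, a motor of dendrites and cilia.

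Markers of neurons, in which several of these motors are abundant, and of other cell types were read beside the kinesins, with 16.5% of all genes called in each direction without the filter. Of 13 neuron markers on the array, 6 (Dcx, Eno2, Nefl, Nefm, Snap91 and Stmn2) did not exceed background on any array, 5 exceeded it on all 4 NS5 arrays and 4 on all 4 astrocyte arrays. Without the filter 2 were called higher, 1 of which did not exceed background on any array, and 0 lower. With it, 1 of 6 was called, and that was lower. The signals of the 13 summed to between 551 and 665 in NS5 cells and to between 531 and 608 in astrocytes. Of the 11 astrocyte markers, 8 rose and 0 fell, Gfap among them, and the probe of Slc1a2 stayed dark. Of 10 oligodendrocyte markers, which include progenitor genes, 4 rose and 2 fell, and their signals summed to between 37600 and 53300 in NS5 cells and to between 14900 and 18400 in astrocytes. All 6 microglia markers and 5 of 7 fibroblast markers were dark on every array, and 0 genes of either list were called by their brightest probe. A dimmer probe of the fibroblast marker Dcn was at least 1.07-fold higher in astrocytes in the fit over all probes (adjusted p = 1.22e-04), above background on 3 astrocyte arrays and 0 NS5 arrays. These counts too are without the filter, and the part of other cell types in the kinesin values was not tested.

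The largest increase of a kinesin was that of Kif21a, a motor that stops microtubule growth at the cell cortex. Its signals were 154, 162, 188 and 165 in NS5 cells and 873, 1180, 1230 and 1190 in astrocytes. Astrocyte array 1 was the lowest of its group, yet lay well above every NS5 array. The mean astrocyte signal was 6.69 times the mean NS5 signal, and the log2 fold change was 2.18 ± 0.10 (SE, adjusted p = 1.79e-09). Its relative Kif21b, known from neurons and immune cells, was not called by its brighter probe. The signals of that probe ran from 38.6 to 51.9 in NS5 cells and from 13.2 to 38.7 in astrocytes, with 3 and 2 arrays above background and an adjusted p = 0.0817. It was called with negative values set to 0 and 16 added (-0.49, adjusted p = 0.0484) and with array weights (-0.24, adjusted p = 0.0165), and the 17 alternatives that kept it gave adjusted p-values between 0.0165 and 0.253. The other probe of Kif21b was called lower in the fit over all probes (adjusted p = 1.62e-04) without being above background on any array.

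The remaining kinesins did not pass the test. Kif12, of little known role in the brain, had signals from 74.9 to 103 in NS5 cells and from 58.9 to 94.7 in astrocytes (adjusted p = 0.611). Kif27, which is linked to motile cilia in the mouse, had signals from 29.0 to 43.0 and from 23.0 to 52.4 (adjusted p = 0.864). Kif2a, which takes microtubules apart at spindle poles and in growing neurites, was not above background on any array by either probe. The same was true of the single probe of Kif9, a motor of flagella and motile cilia.

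**Figure D3:**
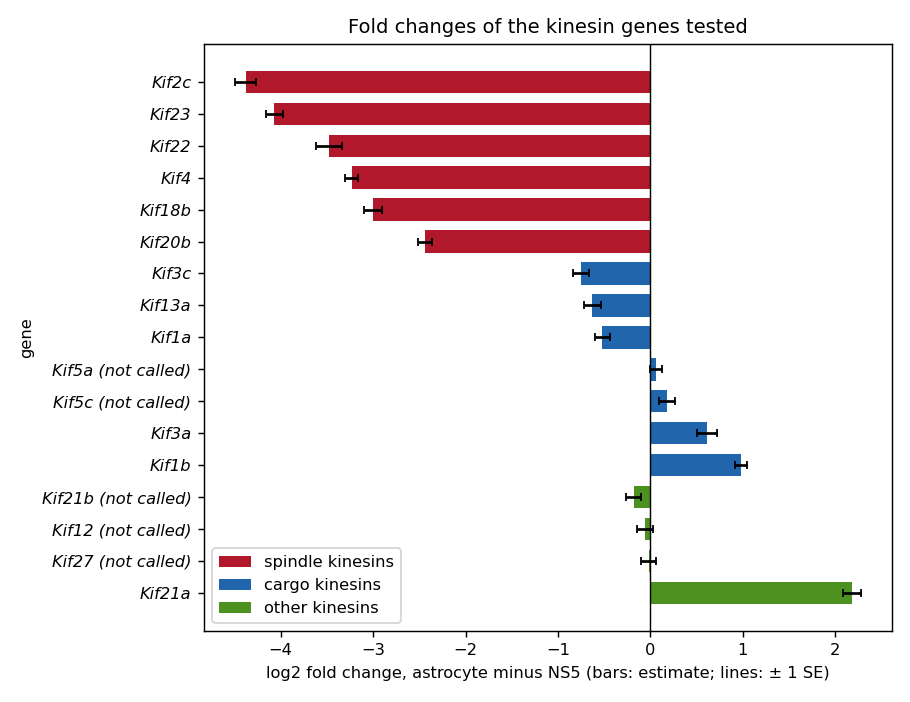
Log2 fold change (astrocyte minus NS5, horizontal axis) with its standard error for the 17 kinesin genes tested, listed by gene and coloured by list. The 6 spindle kinesins run from -4.38 to -2.44, the 7 cargo kinesins from -0.75 to 0.98, and Kif21a stands at 2.18. For genes not above background in astrocytes (Kif2c, Kif23, Kif4 and Kif20b) the bar is a fitted value and the text gives the bound.

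The genes that work with each class were then read. Counts and medians of a list come from the fit without the filter. Changes of single genes, with their SE, come from the fit with it. Of 21 partners and regulators of the spindle kinesins on the array, 18 were called lower and 0 higher without the filter, beside 16.5% of all genes called lower, and the list's median was -3.06 on the log2 scale. Of the 18, 1 was not above background on any array. Aurkb, Bub1b, Mad2l1, Kntc1, Cdca8 and Ndc80 were above background in NS5 cells alone. Such genes pass a filter on the mean only through NS5 cells and were bound to differ in the fit with it. The largest falls among tested partners were those of Plk1, the kinase that readies several of these motors, at -5.50 ± 0.08 (SE), and of Prc1, the midzone bundling protein that binds Kif4, at -5.44 ± 0.13. Aurka, a kinase of spindle poles, had -4.31 ± 0.09, and Birc5, a subunit of the complex that recruits Kif2c, had -4.30 ± 0.09. Of the windows of 19 of these partners, 15 of 21 held the TTTGAA letters and 13 of 21 held both motifs, against 17.9% and 6.95% of all windows. Whether the letters bear on the falls was not tested. Racgap1, the other subunit of centralspindlin beside Kif23, was above background on 1 of the 8 arrays by its brighter probe.

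The light chains and adaptors that couple motors to cargo were read next. Of 18 on the array, 11 were called higher and 2 lower without the filter, beside 16.5% of all genes in each direction, and the list's median was 0.43 on the log2 scale. Fez2 and Fez1, adaptors that link kinesin to vesicles, rose by 1.58 ± 0.10 (SE) and 1.17 ± 0.10 on the log2 scale, Sybu, an adaptor for axonal vesicles, rose by 1.30 ± 0.16, and the scaffold Mapk8ip1 rose by 0.91 ± 0.10. The light chains Klc4 and Klc1 rose by 0.72 ± 0.09 and 0.42 ± 0.09, and Klc1 gave no call by 2 of its 4 probes. Kifap3, the non-motor subunit that joins Kif3a and Kif3b to cargo, rose by 0.44 ± 0.08 by its brightest probe (adjusted p = 2.31e-04) but was not called by its other probes, with adjusted p-values of 0.909 and 0.632 in the fit over all probes.

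Genes of intraflagellar transport, the cargo trains that the Kif3a motor pulls along the cilium, were called higher in 11 of 19 cases and lower in 0 without the filter, beside 16.5% of all genes in each direction, and the list's median was 0.29 on the log2 scale. Ift20, which sorts proteins at the Golgi for the cilium, had 1.33 ± 0.10 (SE), Ift52 had 1.15 ± 0.09, Ift80 had 1.08 ± 0.09 and Ift81 had 1.04 ± 0.08. Of these 19 genes, 6 were not above background on any array. Markers of multiciliated ependymal cells were listed beside them: 4 of 7 (Dnah5, Rsph1, Spag6 and Tekt1) were not above background on any array. The transcription factor Foxj1 was above background in astrocytes alone and at least 1.23-fold higher, and the markers summed to between 258 and 337 in NS5 cells and to between 323 and 528 in astrocytes. Their part in the result was not tested.

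Cytoplasmic dynein walks the opposite way along microtubules. Of 27 genes of dynein, dynactin and their adaptors, 9 were called higher and 2 lower without the filter, beside 16.5% of all genes in each direction, and the list's median was 0.10 on the log2 scale. The heavy chain Dync1h1 was not called (log2 fold change -0.07 ± 0.08 (SE), adjusted p = 0.511). The light chain Dynlrb2 rose by 1.57 ± 0.13 on the log2 scale, the dynactin subunit Dctn2 rose by 0.65 ± 0.06 and the adaptor Hook2 rose by 0.60 ± 0.07, while the light chain Dynll1 had -0.77 ± 0.13.

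**Figure D4:**
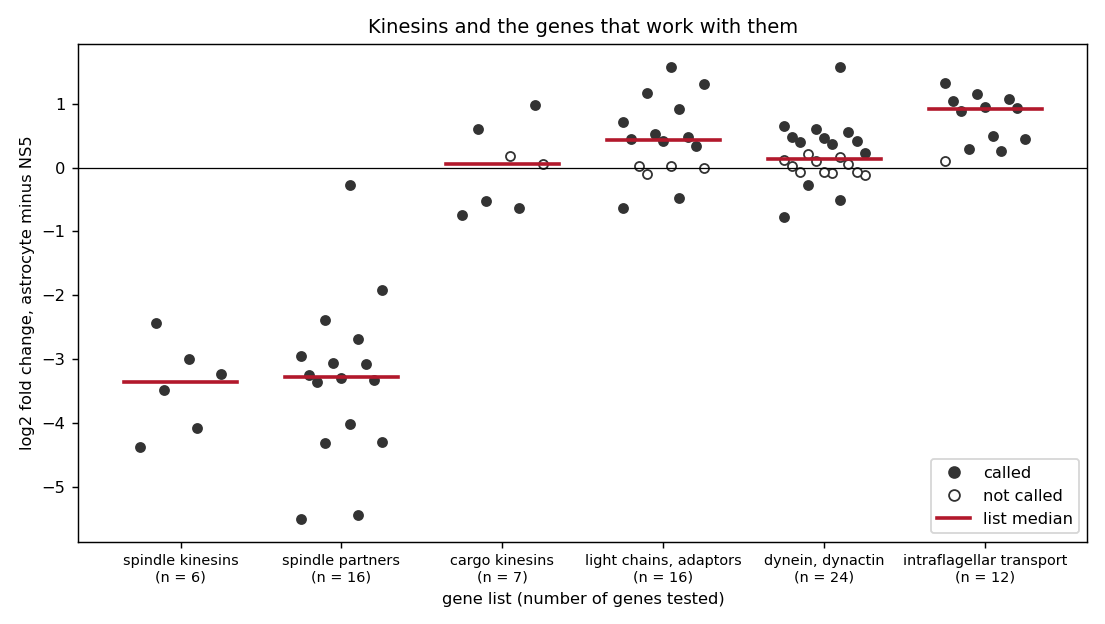
Log2 fold change (astrocyte minus NS5, vertical axis) of each gene that passed the filter, for spindle kinesins, their partners, cargo kinesins, light chains and adaptors, dynein and dynactin, and intraflagellar transport (horizontal axis, with the number of genes). Filled circles were called, open circles were not, and red lines are list medians over these genes, from -3.36 for spindle kinesins and -3.27 for their partners to 0.06 for cargo kinesins and 0.91 for intraflagellar transport. Without the filter these 4 medians were -2.72, -3.06, 0.05 and 0.29. Among spindle kinesins and their partners, the filter kept some genes bright in NS5 cells alone, which were bound to differ.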

How the data were processed

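The authors deposited probe intensities on a linear scale. Some are negative, so a background had been subtracted before deposit, and detection p-values were not used here; the software is not given in the sources used here. They also deposited a table of log2 values, which equal the intensities with a floor of 10, log2 transformed and quantile normalised, within 4.99e-09. Of 24613 probes, 20984 had 1 platform symbol, updated by gene ID to RefSeq names, 1 had several, 687 more were named by accession, and 2942 stood for themselves.

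Intensities were raised by 99.01 (lowest value 16), log2 transformed and quantile normalised. The 12306 probes above the median mean were kept, with the brightest probe for each symbol (10377 genes), and tested with limma 3.58.1 in R 4.3.3 (group as the single term, 8 arrays, calls at an adjusted p under 0.05). The same fit was run on every probe and without the filter. The background limit is 1.645 times the root mean square of an array's negative intensities. Where a group had no array above it, the bound compares the bright group with the lowest normalised values above the limit. Both sides of that comparison keep the added 99.01. The fit was also run on simulated data in which far fewer probes differed than were called here. That run therefore does not show how the fit behaves with as many differences as these data hold.

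Arrays had median intensities from 28.0 to 33.0, with 46.0% to 47.9% of probes above the limit; 4 arrays a group limit the precision. Members and lists were chosen with earlier results of these data known. Every kinesin gene is named; partner examples are those with the largest called changes, apart from Racgap1, Kifap3, Klc1, Klc4, Dync1h1 and Foxj1, which were picked for their link to a kinesin or a list. No slide or scan date is given in the sources used here, so such a batch was not tested. The replicate numbers did not pair the arrays.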

Additional observations from a re-analysis of the deposited data

Results flagged for a closer look

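For 3 of the 34 sets of 4 signals examined (17 genes in each group), 1 array stood apart from the other three by more than the 95% limit of Dixon's test, which chance exceeds in about 1 of 20 sets. In astrocytes, Kif1a was highest on array 3, with a gap of 0.890 of the group's range, Kif20b was highest on array 2, with 0.931, and Kif21a was lowest on array 1, with 0.883. These are 3 different arrays. The Kif20b signals in astrocytes were all below the background limit, and this gene was bound to differ in the fit with the filter. Without the array concerned, the log2 fold changes were -0.55 for Kif1a, -2.47 for Kif20b and 2.28 for Kif21a, and all 3 calls held in limma (adjusted p = 1.19e-04, 9.52e-10 and 3.76e-11).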

How the results depend on the processing

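In the fit with the filter, 12 of the 17 kinesin genes tested were called, against 59.2% of all genes tested. Kif2c, Kif23, Kif4 and Kif20b are among the 12 and were bound to differ in that fit. In 18 alternatives, the 12 kept their direction and their call, and the number of kinesin genes called ran from 12 to 14. Of 304 pairs of a gene and an alternative, 299 kept both, 3 gained a call (Kif5c and Kif21b, in the report) and 2 uncalled genes changed sign: with 1 array left out, Kif12 ran from -0.10 to a value that rounds to 0 (without astrocyte array 2), and Kif27 from -0.08 to 0.03 (without astrocyte array 1). The spindle median of -3.36 was -4.48 with negative values set to 0 and 16 added and -5.37 in the authors' log2 value table, where a smaller constant or a floor takes the place of the added 99.01. It was -2.72 with no filter, -3.23 with the filter on arrays above background, which each add genes, -3.21 with the mean of all probes, and between -3.39 and -3.22 with 1 array left out. The cargo median of 0.06 was 0.16 with negative values set to 0 and 0.22 in the authors' table; the cause was not tested. The median of the other kinesins, -0.04, was 0.01 with no filter and 1.06 with the filter on arrays above background, which alters the genes tested, and their calls went from 1 to 2 with negative values set to 0 and with array weights. Over all genes the calls ran from 5677 to 6392. Arrays with the same replicate number correlated at -0.05 to 0.15 in their deviations from the group means, over 0.1 for 1 of 4 pairs. The numbers were therefore not taken as pairs. With the replicate block, 12 of the 17 kinesin genes and 6074 of the 10377 genes tested were called. Dim probes limit what can be said of 7 kinesin genes that were not above background on any array by the brightest probe.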

Other observations

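Motors of the kinesin superfamily whose symbols lie outside the naming rule gave few measurable values. Kifc2, a minus-end-directed motor known from neurons, was above background on the 4 astrocyte arrays alone by 1 probe, with signals of 78.2, 77.6, 71.4 and 69.0 against -27.0, -12.3, -25.7 and -31.2 in NS5 cells. It was at least 1.26-fold higher in astrocytes (adjusted p = 9.68e-08, limma over all probes), and its other probe was not above background on any array. Kifc3, a motor of cell junctions and the Golgi, had signals from 137 to 187 in NS5 cells and from 145 to 183 in astrocytes and was not called (adjusted p = 0.755). The probes of Cenpe, the kinetochore kinesin, and of Kifc5b were called lower in the fit over all probes (adjusted p = 0.0371 and 0.00280) without being above background on any array. Kifbp, a protein that binds certain kinesins, Kif1a among them, and keeps them off microtubules, rose from signals of 810, 521, 620 and 594 in NS5 cells to 1470, 1540, 1410 and 1590 in astrocytes. Its log2 fold change was 1.13 ± 0.11 (SE, adjusted p = 1.17e-06).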
